A study of Homo sapiens with 12 samples.

Results

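Regions with peaks only in Ishikawa, a human endometrial carcinoma cell line, were taken from peak lists of histone H3 lysine 27 acetylation (H3K27ac). The mark was measured by chromatin immunoprecipitation and sequencing. Overlapping peaks of 8 lists on chromosomes 1 to 22 (minimum overlap 1 bp) were merged into 68750 regions, and a region was kept when both Ishikawa lists and none of the other 6 had a peak in it. This left 3495 regions. A list without a peak in a region does not show that the line lacked acetylation there. The regions were chosen by the presence and absence of peaks in these 8 lists and ordered by score, so their scores, widths and exclusivity are a description and were given no test.

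The lists came from 2 Ishikawa libraries, 2 libraries each of the lung adenocarcinoma lines H358 and H2009, and 1 library each of HCC95, a squamous lung carcinoma line, and BICR31. The series' design text gives BICR31 as a head and neck squamous line, while its own sample label gives lung adenocarcinoma; the design text was followed. Lists of 4 further H2009 libraries, labelled H2009_Empty, H2009_Control, H2009_e3KRAB1 and H2009_e3KRAB2, had no part in choosing the regions. Their names set them apart from the 2 plain H2009 libraries, and they are not taken as replicates of those. All cells grew in RPMI medium with serum, were labelled as without treatment, and were precipitated with antibody ab4729. Endometrial carcinoma is represented by Ishikawa alone, and no label tells if the 2 Ishikawa libraries came from separate cultures.

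H3K27ac is laid down by the acetyltransferases p300 and CBP at active promoters and enhancers. Promoter peaks tend to be shared by many cell types, whereas enhancer peaks tend to differ between them, and groups of enhancers within a short distance often surround genes that define a cell type. The endometrium arises from the Müllerian duct, an embryonic tube patterned by homeobox factors and WNT ligands, and in the adult its glands respond to estrogen and progesterone.

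The Ishikawa lists held 23623 and 26474 peaks in replicates 1 and 2, and the other 6 lists 22850 to 41161. Median peak width was 1522 and 963 bp in the Ishikawa lists, against 348 to 896 bp in the others. The Ishikawa lists also had a file form of their own, with 1 score per peak starting at 50, so the form of the list moved with the line; its part in the choice of regions was not tested. The score is the authors' value for a peak within its own list, no source used here defines it, and sequencing depth is unknown. Gene positions below are hg19 starts from general knowledge, placed to 10 kb, so a stated distance is only that exact.

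The lists held peaks at the starts of epithelial genes in Ishikawa. EPCAM and CDH1, which encode epithelial adhesion proteins, and KRT8 and KRT18, the keratins of simple epithelia, had a peak within 10 kb of the start in all 8 libraries. PAX8, a Müllerian lineage factor, had a peak there in 1 of the 2 Ishikawa lists and in 5 of the other 6. SOX17, a factor of endometrial glands, had one in both Ishikawa lists and in 1 of the others. PAX2 had no region within 100 kb, and ESR1, the estrogen receptor, had no Ishikawa peak within 10 kb of its start, against peaks in 2 of the other lists. NKX2-1, the lineage factor of lung adenocarcinoma, had a peak at its start in neither Ishikawa list and in 3 of the others, BICR31 included. Other lung genes did not all follow it. NAPSA and SFTPC had a peak within 10 kb of the start in all 8 libraries. ABCA3 and LAMP3 had one in both Ishikawa lists and in 4 of the others, while SFTPB and SFTPD had none in any library. With starts placed only to 10 kb, a peak this close can belong to a neighbouring gene and need not mark the named promoter.

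Of 104 placed genes in 4 lists of endometrial, Müllerian, hormone response and endometrial carcinoma genes, 5 had Ishikawa as the sole line with a peak within 10 kb of the start, in both replicates. These were EMX2, PGR, SCGB1D2, LGR5 and PROM1. Among 29 lung and squamous genes listed for contrast there were 0 such genes. Only listed genes were placed, so the share over all genes is unknown and 5 of 104 cannot be called high or low. The promoters of 4 of the 5 are shown because Ishikawa was the sole line with a peak near these starts, which follows from how the regions were chosen; LGR5 is not among the promoter sequences used here. They are RefSeq sequences of the 250 bases before the start, 5′ to 3′ on the gene's strand, with CG pairs in capitals. Their coordinates are of the GRCh38.p14 build and cannot be set against the hg19 positions of the regions. For PGR and PROM1 the table holds 3 and 4 starts, and the one farthest upstream is given.
EMX2 promoter, GRCh38.p14, chr10:117542496-117542745, plus strand: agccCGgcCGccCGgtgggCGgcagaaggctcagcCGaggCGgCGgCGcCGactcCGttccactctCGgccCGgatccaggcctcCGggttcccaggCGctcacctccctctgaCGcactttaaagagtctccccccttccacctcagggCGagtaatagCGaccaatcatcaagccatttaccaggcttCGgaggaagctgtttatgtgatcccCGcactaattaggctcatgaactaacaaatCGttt
PGR promoter, GRCh38.p14, chr11:101129814-101130063, minus strand: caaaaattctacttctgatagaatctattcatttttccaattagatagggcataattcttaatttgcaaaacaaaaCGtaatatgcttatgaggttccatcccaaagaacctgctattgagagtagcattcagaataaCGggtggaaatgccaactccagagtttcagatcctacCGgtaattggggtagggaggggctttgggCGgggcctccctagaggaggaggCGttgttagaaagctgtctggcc
SCGB1D2 promoter, GRCh38.p14, chr11:62241989-62242238, plus strand: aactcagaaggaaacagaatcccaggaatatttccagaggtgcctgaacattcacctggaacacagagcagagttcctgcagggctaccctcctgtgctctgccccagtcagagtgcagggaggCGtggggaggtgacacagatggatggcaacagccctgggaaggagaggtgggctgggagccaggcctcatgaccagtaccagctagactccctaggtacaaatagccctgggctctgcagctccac
PROM1 promoter, GRCh38.p14, chr4:16084024-16084273, minus strand: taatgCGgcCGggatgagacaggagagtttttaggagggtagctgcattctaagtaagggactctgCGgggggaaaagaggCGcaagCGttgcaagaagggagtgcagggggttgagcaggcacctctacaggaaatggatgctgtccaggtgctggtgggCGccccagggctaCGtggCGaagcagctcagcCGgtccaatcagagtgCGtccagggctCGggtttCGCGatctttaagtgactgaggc

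The 4 promoters ranged from CG-poor to CG-rich. EMX2 had 20 CG pairs, more than 67.6% of the 35116 promoters in the table, PROM1 had 13 (53.4%), PGR had 5 (34.3%) and SCGB1D2 had 1 (6.1%), against a median of 11 pairs for the table. The letters GGTCANNNTGACC, the full estrogen response element, were in none of the 4 on either strand, and in 0.0399% of all promoters. The shorter motif GGTCA, which the full element contains, was in SCGB1D2 alone of the 4, on the strand opposite to that shown. With both strands searched, it was in 32.6% of all promoters. The letters TATAAA were in none of the 4 and in 10.7% of all promoters. A match describes letters in this window and says nothing of binding.

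PROM1 encodes prominin-1, the CD133 surface protein of progenitor and glandular cells, and carried the strongest of these promoter-side regions. At chr4:16083847-16086232 it scored 320.88 and 473.95 in Ishikawa replicates 1 and 2, place 19 of 3495 by the lower score. A second region about 40 kb inside the gene, chr4:16034712-16037411, scored 99.38 and 88.3. Of the 3 merged regions within 100 kb of the start, these were 2. In each replicate the first scored more than 3 times the second.

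LGR5, the R-spondin receptor that marks stem cells of several epithelia, had the most Ishikawa-only regions of any list gene. Within 100 kb of its start, 5 of 6 merged regions were found in Ishikawa only, and the 5 formed a single run. The region nearest the start, chr12:71832941-71834094, scored 104.41 and 124.41. Further into the gene, chr12:71846975-71852251 was 5277 bp wide and scored 190.28 and 242.73, the highest of the 5. The remaining 3 scored 89.44 and 116.56, 156.17 and 169.78, and 146.69 and 143.83 in replicates 1 and 2, so 4 of the 5 were higher in replicate 2.

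PGR encodes the progesterone receptor, which is induced by estrogen in endometrium. The region nearest its start, within the 10 kb to which the start was placed, was chr11:100997600-101000508, 2909 bp wide, with scores of 140.65 and 89.07. A second region about 90 kb away, at chr11:100903831-100905854, scored 76.96 and 69.37. Both were higher in replicate 1, and neither was among the strongest, the first being at place 1406.

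EMX2, a homeobox factor required for the urogenital tract, had 2 wide regions side by side. The first, chr10:119301225-119308221, spanned 6997 bp and scored 126.59 and 107.94. The second began next to it at 119308223, spanned 5422 bp and scored 52.44 and 64.33, close to the lowest score in the lists. Together they are the widest acetylated stretch at the start of any of the 5 genes.

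SCGB1D2 encodes lipophilin B, a small secretoglobin of uterine and mammary secretions, and its neighbour SCGB2A1 encodes mammaglobin B. Of 2 adjacent regions within 10 kb of the SCGB1D2 start, chr11:62009736-62011751 scored 185.06 and 174.88. The other, chr11:62008168-62009639, scored 161.04 and 133.42. Both lie about 30 kb from the start of SCGB2A1, where only 1 Ishikawa list had a peak.

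**Figure D1:**
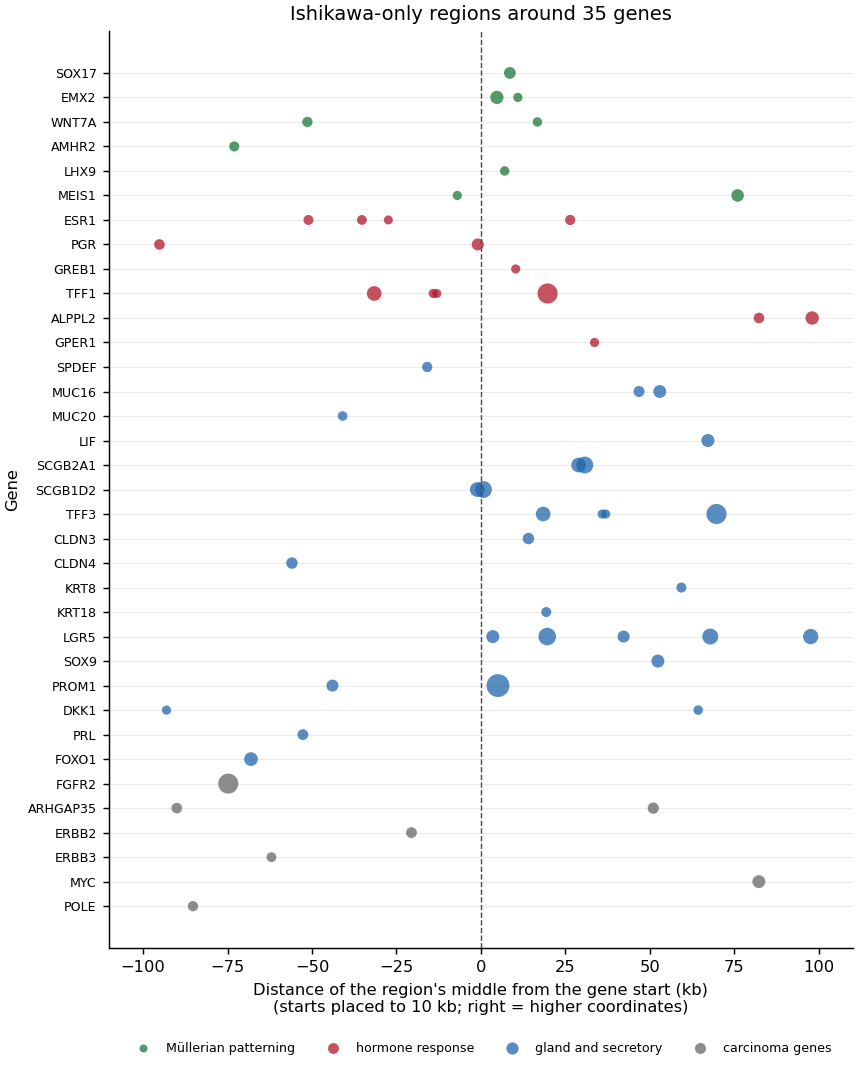
Ishikawa-only regions within 100 kb of the starts of 35 endometrial-list genes; each row is a gene, the x axis is the distance of the region's middle from the gene start in kb (starts placed to 10 kb), point area grows with the lower of the 2 Ishikawa scores, and colour gives the gene list. LGR5 has 5 points to the right of its start, PROM1 the largest point at its start, and TFF1 and TFF3 share 4 regions.

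Over the 4 endometrial lists, 38 of 104 placed genes (36.5%) had an Ishikawa-only region within 100 kb of the start, 55 regions in all. As background, 25.7% of the 8409 regions with a peak in all 8 lists, most of which mark widely active sites, had an Ishikawa-only region within 100 kb. By list, the share was 17 of 35 gland and secretory genes (48.6%), 8 of 20 carcinoma genes (40.0%), 6 of 20 hormone response genes (30.0%) and 7 of 29 Müllerian patterning genes (24.1%), against 5 of 29 lung and squamous genes (17.2%). The Müllerian and hormone response shares were nearest to the background. The gland and carcinoma shares were above it and the lung and squamous share below it. The lists are short and no test was made. An Ishikawa-only region lay within 10 kb of the start of 9 of 104 endometrial-list genes and 0 of 29 lung and squamous genes. The same held for 2.69% of the regions with a peak in all 8 lists. Such a region fills its own site and cannot itself be Ishikawa-only, whereas a gene start can lie inside one. The background is thus unlike the gene shares, most of all within 10 kb, and gives no measure of excess. The gene lists were also chosen with earlier results of these data known. Some genes share a region, as do TFF1 with TFF3, KRT8 with KRT18, CLDN3 with CLDN4, and SCGB2A1 with SCGB1D2, so the genes are not independent counts.

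Among the Müllerian genes, the HOXA genes that pattern the duct along its length were acetylated at the start in other lines too. HOXA9 and HOXA10 had peaks at the start in all 8 libraries, HOXA11 in 5 and HOXA13 in 3, both Ishikawa lists included each time, and none had an Ishikawa-only region within 100 kb. SOX17 had chr8:55375851-55381288, 5438 bp wide, with scores of 85.53 and 120.49. WNT7A, the ligand that patterns uterine epithelium, had 2 weak ones with scores of 79.22 and 54.54 and of 65.49 and 77.03.

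MEIS1, a cofactor of HOX proteins, had a weak region near its start (51.93 and 53.12) and a wide one about 70 kb further on, chr2:66733106-66738848, with scores of 121.57 and 96.86. LHX9, a LIM homeobox factor of the gonad, had chr1:197886478-197887554 with 60.05 and 54.9. AMHR2, the receptor for anti-Müllerian hormone, had a region about 70 kb away with 134.07 and 62.72.

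In the hormone response list, the estrogen receptor itself had several weak regions around it. ESR1 had 4 regions within 100 kb, with lower scores of 50.14 to 64.64, none within 10 kb of the start. They belong to a run of 5. GREB1, an early estrogen-induced gene, had chr2:11679711-11680869 with 51.4 and 52.96, just above the floor of 50. ALPPL2, a placental-type alkaline phosphatase, had 2 regions about 80 and 100 kb away, the stronger with 122.13 and 110.04. GPER1, a membrane estrogen receptor, had a region about 30 kb away with 68.23 and 52.25.

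The trefoil genes on chromosome 21, TFF1 and TFF3, encode secreted mucosal peptides, and TFF1 is a classical estrogen target. They shared a run of 4 regions. The strongest, chr21:43808171-43811289, about 20 kb from TFF1, scored 248.56 and 292.34. The one nearest to TFF3, chr21:43757241-43759583, scored 132.72 and 225.63. The other 2 lay between the genes and scored 52.66 and 76.91, and 54.4 and 51.09. The run thus held strong regions at its ends and weak ones between, in both replicates.

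Among further gland and secretory genes, MUC16, which encodes the CA125 antigen, had 2 regions about 50 kb from its start, the wider of which, chr19:9140375-9145483, scored 102.22 and 106.38. SOX9, a factor of glandular progenitors, had chr17:70170756-70173987 about 50 kb away with 104.2 and 156.48. FOXO1, a factor of decidualization, had one about 70 kb away with 142.68 and 115.66, and LIF, the cytokine of implantation, one about 70 kb away with 131.28 and 104.9. CLDN3 and CLDN4, tight junction claudins, shared one with 80.84 and 118.52. PRL, DKK1, SPDEF, MUC20, KRT8 and KRT18 had regions with lower scores of 51.65 to 71.72.

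In the carcinoma list, FGFR2, a receptor mutated in some endometrial carcinomas, had the strongest region, chr10:123282558-123287870. It was 5313 bp wide, lay about 70 kb from the start on the side into which the gene is transcribed, and scored 251.37 and 246.85 (place 61). MYC had chr8:128829872-128834635 about 80 kb from its start, 4764 bp wide, with 102.78 and 184.22. ERBB2, a growth factor receptor, had chr17:37816821-37822048 about 20 kb from its start, 5228 bp wide, with 72.58 and 135.13. ARHGAP35, POLE and ERBB3 had regions with lower scores of 59.93 to 78.35. At the starts of 17 of these 20 genes all 8 libraries had a peak, and 0 had an Ishikawa-only region within 10 kb.

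Among the lung and squamous genes, TP63, the factor of squamous epithelia, had 2 Ishikawa-only regions about 50 and 70 kb from its start, with 54.77 and 61.51 and with 132.76 and 100.25. LAMP3, a lysosomal membrane protein of alveolar cells, had one about 50 kb away with 156.48 and 146.57. ETV5, an ETS factor, had one about 10 kb away with 90.89 and 111.7, and SCGB1A1, the club cell secretoglobin, and GRHL3, an epithelial factor, had one each with lower scores of 75.39 and 84.69. Regions found in Ishikawa only thus lay near some genes of other epithelia as well.

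Outside these lists, the 10 strongest regions were ordered by the lower of the 2 scores. The highest, chr6:10659231-10660979, scored 448.19 and 499.2 and lay about 30 kb from GCNT2, which encodes an enzyme that branches surface glycans. Genes at these regions were looked up after the regions had been seen. At chr22:28900282-28903657, inside TTC28, the scores were 406.47 and 457.75. A region at SIX3, a homeobox factor of forebrain and eye, chr2:45164366-45167336, scored 379.92 and 463.15. Another homeobox site was HOXD9, at chr2:176986472-176988601, with 360.66 and 418.56 and another line's peak 5.51 kb away.

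At chr3:127935925-127939546, inside EEFSEC, an elongation factor for selenoproteins, the scores were 369 and 565.4, the widest gap between replicates among the 10 and place 658 in the replicate 2 list. MYCN, the neuronal homologue of MYC, had chr2:16152000-16154317 about 60 kb away with 364.49 and 347.19. This region was the only one of the 10 that was higher in replicate 1. Other Ishikawa-only regions, with lower scores in both replicates, lay nearer to MYCN, including at its start. The region near PRRC2B, chr9:134257282-134259914, scored 358.03 and 405.55. One at GASK1A, chr3:43020422-43021834, scored 348.64 and 385.64, and one at XKR4, chr8:56013144-56014765, scored 343.29 and 466.13. No gene was assigned to chr5:105079364-105082721, with 379.61 and 395.69, 66.4 kb from the nearest peak of another line and 4.2 kb from another Ishikawa-only region.

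The 10 strongest were single peaks in each list, 1413 to 3622 bp wide, on 7 chromosomes. None was near the top of its own list, since their places were 1014 to 3419 in replicate 1 and 658 to 4671 in replicate 2. The highest places in both lists were thus held by regions that other lines shared.

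The 10 widest regions were a different set, all weak in replicate 1. They spanned 7180 to 8153 bp, scored 50.04 to 85.88 in replicate 1 and 76.67 to 289.68 in replicate 2, and all 10 were higher in replicate 2. Those at KLHL14 and MPPED2, chr18:30346413-30354565 and chr11:30441080-30449161, were the widest and lay within the runs described below. The region at FGF18, a growth factor, chr5:170845285-170852841, spanned 7557 bp and scored 79.36 and 212.25. NFIX, a nuclear factor I family member, had chr19:13200368-13207709, 7342 bp wide, with 50.95 and 129.26.

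Of the others, chr3:166841028-166848971 spanned 7944 bp with scores of 60.56 and 281.68 and lay 105 kb from any peak of another line, the farthest of the 10. RASA3, a Ras GTPase-activating protein, had chr13:114819408-114827240 with 63.73 and 173.01. DNM3, a dynamin, had chr1:172363106-172370465 with 52.98 and 194.13. GSAP had chr7:76954653-76962323 with 74.68 and 123.88, MTCL2 had chr20:35447496-35454675 with 85.88 and 134.31, and chr2:68069200-68076525 had 50.04 and 76.67. All 10 covered more bases in replicate 1 (7012 to 8153) than in replicate 2 (3016 to 6745), so the list with the wider call gave the lower score each time.

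**Figure D2:**
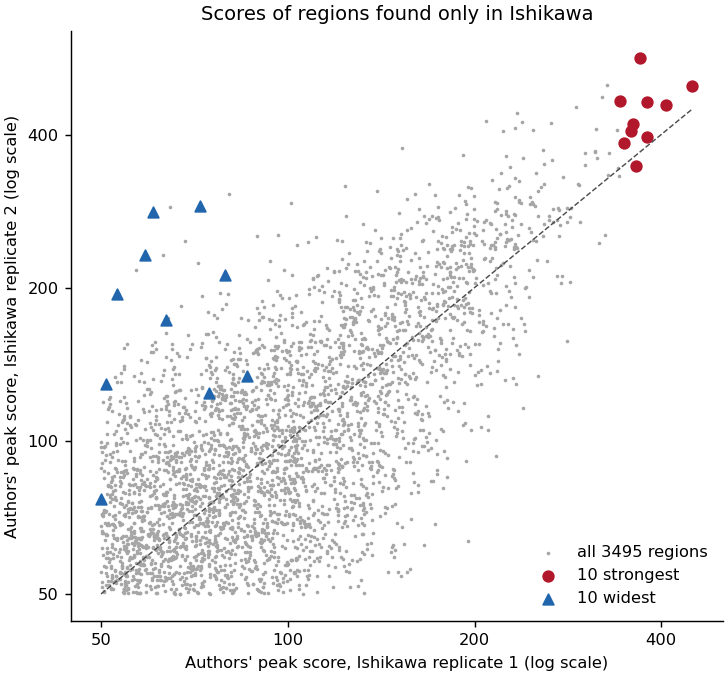
Authors' peak scores of the 3495 Ishikawa-only regions in replicate 1 (x axis) and replicate 2 (y axis), both on log scales, with equal scores on the dashed line. The 10 strongest (red circles) sit at the upper right, 343.29 or more in replicate 1, and the 10 widest (blue triangles) lie above the line at 50.04 to 85.88 in replicate 1.

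Across all 3495 regions, the lower score had a median of 79.1 (quartiles 61.6 and 113, range 50.02 to 448.19). Replicates 1 and 2 had medians of 93.5 and 95.8, and 1972 regions (56.4%) were higher in replicate 2. A lower score of at least 100 was found in 1118 regions (32.0%), and of at least 200 in 158 (4.52%). The scores of the replicates had a Spearman correlation of 0.617 across the 3495 regions, which share their library pair and are not independent.

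Merged width had a median of 1514 bp (quartiles 963 and 2337), and 119 regions (3.40%) spanned 5 kb or more. Called bases differed between the lists, with medians of 1445 bp in replicate 1 and 882 bp in replicate 2, and the bases called in both made up a median of 62.4% of a region. Among the first 100 regions by score and the first 100 by width, 3 were shared, and width and lower score had a Spearman correlation of 0.478 across the 3495 regions. A single peak in each list made up 3100 regions (88.7%), whereas 369 held several peaks in replicate 2 and 38 in replicate 1.

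At the threshold of the rule, the lowest region kept was chr18:40614855-40615550, with scores of 65.74 and 50.02. Just outside it were 4136 regions with a peak in 1 Ishikawa list and in no other line. Of these, 2061 were in replicate 1 alone with a median score of 60.8 and a highest of 170.7, and 2075 were in replicate 2 alone with a median of 62.9 and a highest of 237.74. A further 1460 regions had both Ishikawa peaks and a peak in 1 other list, with a median lower score of 93.9 and a highest of 524.69. BICR31 was that list in 743 of them (50.9%), HCC95 in 307, and each H358 or H2009 list in 73 to 121. BICR31 had the longest list, with 41161 peaks, and HCC95 the shortest, with 22850. H358 and H2009 had 2 libraries each, so a region with a peak in both lists of either line fell outside this class. BICR31 and HCC95 had 1 library each, so these counts cannot be compared between lines.

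The 3495 regions were 5.08% of all merged regions, and 18.1% of the 19282 regions with a peak in both Ishikawa lists (95% Wilson interval 17.6 to 18.7, counting error only). They were the weakest and narrowest class by number of other lists with a peak. The median lower score was 79.1 with 0 other lists, 93.9 with 1, 103 with 2, 117 with 3, 143 with 4, 184 with 5 and 289 with all 6. The median width was 1514 bp with 0 other lists, 1759 bp with 4 and 2156 bp with 6. Merged width spans the peaks of every list in a region, so each further list can only widen it. A wide region can also meet a peak of another list more easily. Part of the rise in width is thus built into the classes. The quartile ranges of scores for 0 and 6 other lists, 61.6 to 113 and 211 to 368, did not overlap, while those for 0 and 1 did.

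**Figure D3:**
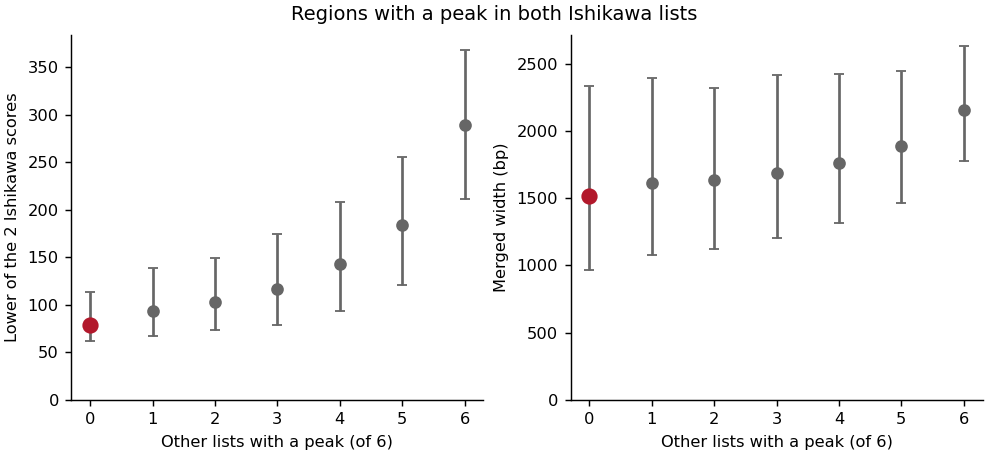
Median (points) and quartiles (bars) of the lower Ishikawa score (left) and the merged width in bp (right) of the 19282 regions with a peak in both Ishikawa lists, by how many of the other 6 lists had a peak; the red point is the Ishikawa-only class. Score and width medians are 79.1 and 1514 bp at 0 other lists and 289 and 2156 bp at 6, with a step up at each number between. Merged width includes the peaks of the other lists, which can only widen a region.

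The regions varied widely in how far they lay from peaks of other lines. The distance to the nearest peak of another line had a median of 14.2 kb, with 265 regions (7.58%) within 1 kb of one, 1452 (41.5%) over 20 kb away and 350 (10.0%) over 100 kb away. To the nearest other Ishikawa-only region the median distance was 113 kb.

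When regions within 100 kb of each other were joined, 1845 (52.8%) stood alone, 862 formed pairs, and 788 (22.5%) formed 209 runs of 3 or more. The runs spanned a median of 101 kb (11.1 to 346 kb). In 51 of them there was no region of another line. Regions in runs had a median lower score of 82.8 and a median width of 1982 bp, against 77.7 and 1320 bp for regions standing alone.

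Both runs of 8 lay away from the genes of the lists. The run at chr2:130361621-130681824 held 8 Ishikawa-only regions among 14 merged regions, 4 of which had a peak of another line. Its scores ranged from 69.04 to 156.65 in replicate 1 and from 55.78 to 208.19 in replicate 2. The run at chr11:130385669-130732159, about 20 kb from SNX19, held 8 among 28, with 11 of another line, and its strongest region, chr11:130521985-130527021, scored 199.67 and 302.25.

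ROBO1, a receptor for the guidance ligand SLIT, held a run with no region of another line. At chr3:79568795-79803020, 7 of 10 regions were Ishikawa-only and the other 3 had a peak in a single Ishikawa list. All 7 were higher in replicate 2, with scores of 52.88 to 148.05 in replicate 1 and 104.34 to 249.93 in replicate 2. The strongest was chr3:79700988-79705194, with 148.05 and 249.93.

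The runs at MPPED2 and KLHL14 each held 7 regions, among 11 and 14 merged regions. In each, the strongest region was not the widest. At MPPED2 it was chr11:30507997-30513243, with 232.37 and 301.24, and at KLHL14 it was chr18:30379680-30385316, with 236.1 and 295.

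**Figure D4:**
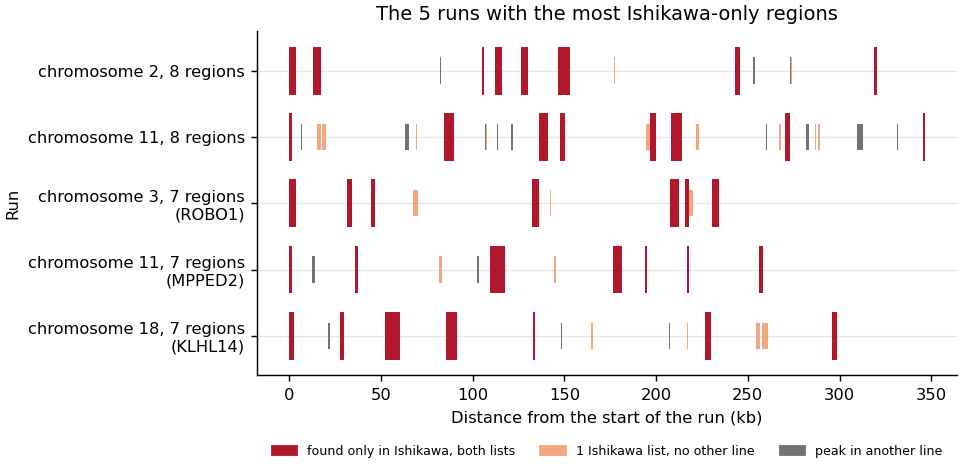
The 5 runs with the most Ishikawa-only regions, drawn to scale as distance in kb from the start of each run; tall red bars are Ishikawa-only regions, low orange bars regions with a peak in 1 Ishikawa list and no other line, and low grey bars regions with a peak in another line. The ROBO1 run has 7 red and 3 orange bars and no grey one, while the longer chromosome 11 run has 11 grey bars.

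The densest runs were short groups of 3. At BARX1, a homeobox factor, chr9:96707723-96718800 packed 3 regions into 11.1 kb, with scores of 65.12 and 132.53, 70.7 and 75.71, and 131.02 and 154.73. SOD3, extracellular superoxide dismutase, had 3 regions in 15.7 kb at chr4:24782441-24798107 and no other merged region between them. Those at the KRTAP1-1 keratin-associated protein cluster, at RTN4, which encodes a reticulon of the endoplasmic reticulum, and at KLF13, a Krüppel-like factor, spanned 21.8, 25.2 and 26.1 kb. The KLF13 run, chr15:31627884-31654015, was the strongest of the 5 by its median lower score, 133, and its regions scored 103.69 to 151.96 in replicate 1 and 116.86 to 146.83 in replicate 2.

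The share of merged regions found in Ishikawa only differed between chromosomes. It was highest on chromosome 21, 73 of 849 regions or 8.60% (95% Wilson interval 6.89 to 10.7), then 7.12% on chromosome 18 (5.86 to 8.61) and 6.75% on chromosome 12 (5.96 to 7.62). It was lowest on chromosome 20, 3.47% (2.73 to 4.41), followed by chromosome 22 at 3.67% and chromosome 19 at 3.75%. The interval of chromosome 21 lay above the 5.08% of all chromosomes together and that of chromosome 20 below it. Neighbouring regions are not independent, so these intervals cover counting error only.

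The order depended on the denominator. Of regions with a peak in both Ishikawa lists, the share was again highest on chromosome 21 (28.9%) and chromosome 18 (28.2%), but lowest on chromosome 19 (8.27%), with 13.6% on chromosome 20. Chromosome 2 held the most Ishikawa-only regions, 321 or 9.18% of them, and was 9th by its share of merged regions, 5.47%. The median lower score per chromosome ranged from 72.6 on chromosome 22 to 89.2 on chromosome 12.

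**Figure D5:**
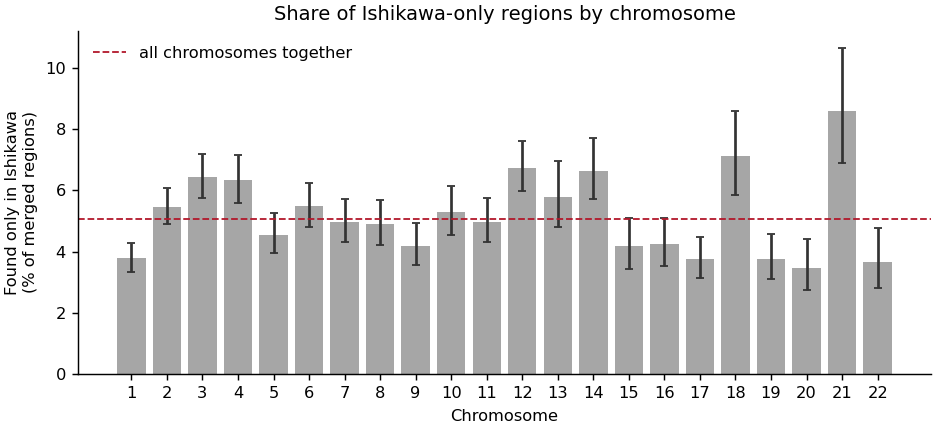
Ishikawa-only regions as a percent of all merged regions on each chromosome, with bars starting at 0 and 95% Wilson intervals that cover counting error only. Chromosome 21 stands at 8.60% and chromosome 20 at 3.47%, beside 5.08% for all together (dashed line).

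The 4 further H2009 lists had no part in the choice of regions and served as a separate look at whether H2009 had peaks in them. Of the 3495 regions, 15 had a peak in any of these lists, or 0.429% (95% Wilson interval 0.260 to 0.707), beside 7.71% of all merged regions and 42.9% of the 8409 regions with a peak in all 8 lists. Among the other regions without an H2009 peak the share was 238 of 37911, or 0.628%. When BICR31 was left out of the choice of regions, 1.01% of the Ishikawa-only regions had such a peak. These lists were short, with 1349 to 3204 peaks, so a missing peak in them says little about a single region.

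The 15 shared regions were mostly narrow. Of them, 11 were under 1 kb wide, against 927 of all 3495 (26.5%), and their median width was 502 bp. In all 4 further lists there were 3, at chr2:89853074-89853392, chr9:72652965-72653431 and chr21:10856708-10857092, with scores of 110.04 and 88.54, 84.8 and 101.34, and 110.56 and 138.83. Chromosome 21 held 3 of the 15.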

How the data were processed

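H3K27ac was measured in 12 libraries of 5 human cancer cell lines, and the authors deposited 1 peak list per library. BWA and the hg19 build are named in the submitters' processing notes; no source used here gives the version, the control or any pooling. The Ishikawa lists hold 1 deposited score per peak, whose peak names begin with MACS per the file contents. From the other lists only the deposited −log10 p of each peak was used, to rank peaks within a list. Read numbers are not in a peak list, so depth is unknown.

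Peaks off chromosomes 1 to 22, 6391 of 224893 (2.84%), were left out. Regions were merged with Python 3.11.15 (pandas 2.3.3, numpy 2.4.6), shares carry Wilson intervals from scipy 1.17.1, and figures were drawn with matplotlib 3.10.9. The steps were tested on simulated lists. A region's score in a replicate is its highest peak's, and both replicates enter through the lower one. The regions and gene lists were chosen with earlier results of these data known, and no test was made.

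Regions named are the 10 strongest, the 10 widest, the 5 runs with the most regions and the 5 densest per 100 kb. Genes named are the list genes within 100 kb, with others at these regions added after the regions were seen; some counted list genes are not reported here by name. Of 134 list genes 133 were placed; all were on the chromosome that the RefSeq table (GRCh38.p14) gives, and of 439 pairs of genes at least 250 kb apart, 0 were in another order. Alternatives changed the merging distance, the score minimum, list lengths, run and gene distances, and left out each library.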

Additional observations from a re-analysis of the deposited data

Results flagged for a closer look

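Chromosome X was outside the rule and entered no comparison above. By the same rule it held 112 Ishikawa-only regions of 1898 merged regions, or 5.90% (95% Wilson interval 4.93 to 7.05). This interval includes the 5.08% on chromosomes 1 to 22, so the share did not stand apart. Chromosome X drew attention because the comparisons did not use its data and its count was above 3, the limit that a count of 0 allows. That limit says nothing of whether the share is high. Their median lower score was 76.5 and their median width 1162 bp. The strongest, chrX:74143310-74145996, scored 207.2 and 240.51 in replicates 1 and 2.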

How the results depend on the processing

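The count of Ishikawa-only regions rests on both replicates, on the score minimum in the Ishikawa lists and on how much of the other lists is used. With a score of at least 100 in the Ishikawa lists there were 1118 regions with a median lower score of 138, a median width of 2133 bp, 23 runs and 14 endometrial-list genes within 100 kb. With only the higher-ranked 50% of each other list there were 5627 regions, a median lower score of 84.4, 476 runs and 1.01% with a peak in a further H2009 list. With lists of equal length (22850 peaks) the median lower score was 89.8 and the count 3378. The mean of the 2 scores had a median of 95.7, and bases called in both replicates a median of 825 bp. Runs numbered 125 with a gap of 50 kb, 323 with 200 kb, and 133 among regions over 5 kb from a peak of another line, a setting chosen after seeing the data. Within 50 kb, 23 endometrial-list genes had a region. A score minimum or a shorter distance gives lower counts by construction, and fewer peaks in the other lists, or a need for 1 Ishikawa list in place of 2, give higher ones; the cause of the other shifts was not tested.

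Leaving out 1 library at a time gave 3568 to 6345 regions, median lower scores of 76.0 to 80.7, median widths of 644 to 1512 bp, 211 to 616 runs, 38 to 56 genes, 0.319% to 1.01% with a further H2009 peak, and 8.45% to 9.16% on chromosome 2. Without Ishikawa replicate 1 there were 6345 regions and 616 runs, and without replicate 2 there were 5636 and 449. Without BICR31 there were 4343 regions, 313 runs and 1.01% with a further H2009 peak. Merging peaks within 500 bp gave 3349 regions, and excluding regions of the further H2009 lists gave 3480. No paired analysis was possible because the results come from no test and the rule joins both Ishikawa replicates in each region.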
